A study of Homo sapiens with 3 samples.

Results

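Proteasome subunit and regulator genes were taken as the protein-coding genes of GENCODE release 44, mapped to hg19, whose names are PSMA, PSMB, PSMC, PSMD, PSME, PSMF or PSMG followed by a number. There were 48 such genes among 19863 protein-coding genes with a canonical transcription start site (TSS), and their ETS1 binding was read from 26970 consensus ChIP-Seq peaks. ETS1 is a transcription factor of the ETS family, which binds DNA around a GGAA core. The chromatin came from untreated SCC25 cells, an established tongue squamous carcinoma line that the labels call mesenchymal. ETS1 was immunoprecipitated in 3 samples, of which 2 used the polyclonal antibody C20 and 1 used the polyclonal antibody 501A. Each gene was assigned the peaks whose midpoint lay from 5 kb upstream to 1 kb downstream of its canonical TSS, called the TSS window below, then those elsewhere in the gene body, and then those within 50 kb of the TSS.

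The deposited list is a single pool of the 3 samples, holds only peak positions, and so gives no height, no value per sample or per antibody and no spread between replicates. The number of reads behind a peak cannot be read from it, and a gene without a listed peak is one at which no peak passed the authors' reproducibility threshold, not one shown to lack ETS1. All samples came from 1 cell line, and no sample with reduced ETS1 is among them. Shares of genes are given with 95% Wilson intervals, which cover counting error only, beside the share over all genes.

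The proteasome is the protease complex that degrades proteins tagged with ubiquitin. Its 20S core is a barrel whose outer rings are built of alpha subunits and whose inner rings are built of beta subunits, some of which carry the proteolytic sites. The 19S regulatory particle caps the core, where a base with a ring of ATPases unfolds substrates and a lid removes ubiquitin. Cells exposed to interferon gamma exchange the catalytic beta subunits for the immunoproteasome subunits PSMB8, PSMB9 and PSMB10, and the products feed antigen presentation. Subunit genes are known to be transcribed in concert, with NFE2L1 acting through antioxidant response elements as their best-known common activator.

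ETS1 peaks lay at the start site of nearly all proteasome genes. A peak midpoint fell in the TSS window of 46 of the 48 genes (95.8%, 86.0 to 98.8), while the share over all protein-coding genes was 56.0%. All 7 constitutive alpha subunits, all 7 constitutive beta subunits, the 3 immunoproteasome subunits, the 6 ATPases, the 3 other base subunits, the 8 lid subunits, the 3 assembly chaperones of the 19S particle, the 4 activators, the inhibitor PSMF1 and the 4 assembly chaperones of the 20S core had one. The 2 genes without one were PSMA8, an alpha subunit of the testis, and PSMB11, the catalytic beta subunit of the thymus. For 46 of 46 genes the nearest of these peaks covered the TSS itself, whereas this held for 92.0% of all genes with a peak in the window. No proteasome gene was left without any peak within 50 kb, a distance within which 77.8% of all genes had one.

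**Figure D1:**
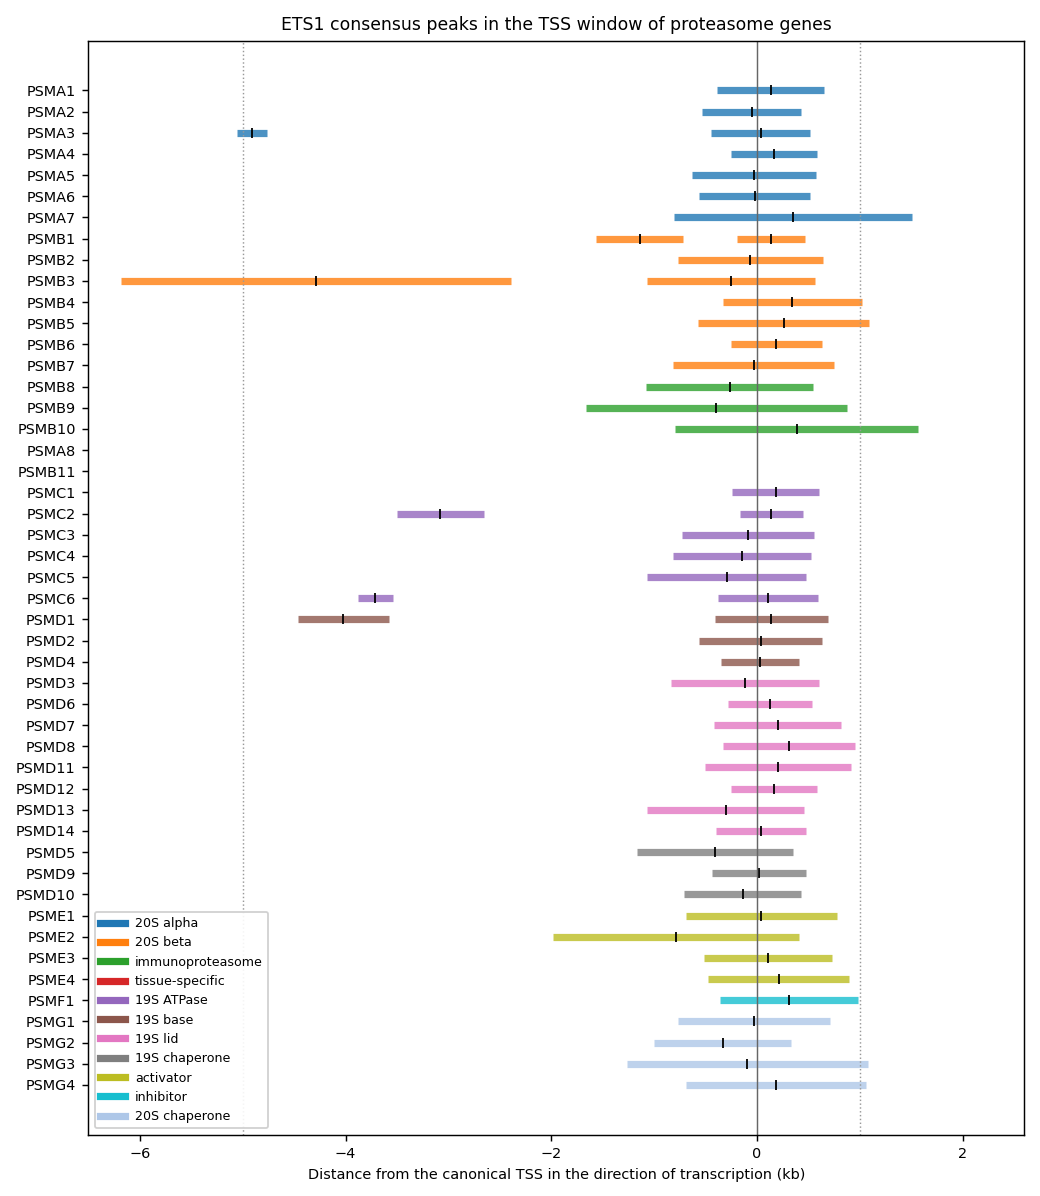
ETS1 consensus peaks of the 48 proteasome genes, 1 row per gene, against distance from the canonical TSS in kb. Bars are peak extents colored by role, ticks are midpoints, and dotted lines bound the TSS window. Peaks cover the TSS in 46 rows, the rows of PSMA8 and PSMB11 are empty, and 6 genes carry a further peak upstream.

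ETS1 peaks were found at a larger share of promoters rich in CpG than of other promoters, so the proteasome genes were also read within each class. A promoter was called CpG-rich where the 1 kb around the TSS had at least 50% GC and an observed over expected CpG ratio of at least 0.6. This class held 39 of the 48 proteasome genes (81.2%, 68.1 to 89.8), beside 65.1% of all genes, and 39 of these 39 had a peak (100%, 91.0 to 100), beside 74.2% of all CpG-rich promoters. Of the 9 proteasome genes with another promoter 7 had a peak (77.8%, 45.3 to 93.7), beside 21.8% of all such promoters. The proteasome share was therefore above the share of both promoter classes. Among these 7 genes, PSMA6, PSMB8 and PSMC6 had more than 50% GC and missed only the ratio limit, at 0.597, 0.599 and 0.595. The second comparison thus rests in part on promoters close to the CpG-rich class.

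The share was close to that of other sets of housekeeping genes. A peak in the TSS window was found for 81 of 86 genes with names of cytosolic ribosomal proteins (94.2%, 87.1 to 97.5) and for 74 of 78 of mitochondrial ribosomal proteins (94.9%, 87.5 to 98.0). All 37 aminoacyl-tRNA synthetase genes, whose enzymes load amino acids onto tRNAs, had one. These intervals overlap that of the proteasome genes, and no test between the sets was run.

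**Figure D2:**
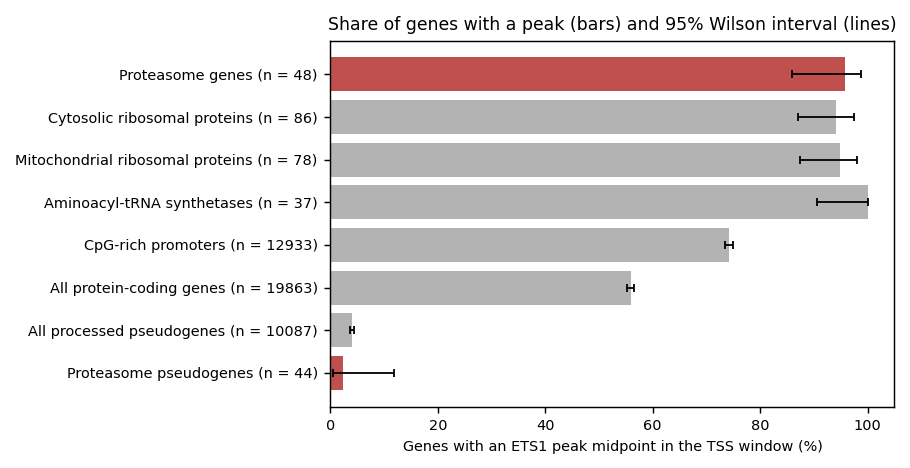
Share of genes (%) with an ETS1 peak midpoint in the TSS window, for proteasome genes and their pseudogenes in red and for other sets in gray. Lines are 95% Wilson intervals. Proteasome genes (95.8%) sit with the ribosomal protein and tRNA synthetase sets, above all genes (56.0%), and their pseudogenes (2.27%) sit with all processed pseudogenes (4.04%).

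Promoter sequences are shown for the subunit with the peak midpoint nearest to the TSS among those that held the ETS motif CCGGAA, for the alpha, beta, ATPase and lid subunits in turn, followed by the immunoproteasome and tissue-specific genes, which include both genes without a peak in the TSS window. They run 5′ to 3′ on the strand of the gene, from 150 bases before to 49 bases after the TSS, and were read from GRCh37. Capitals mark 3 ETS cores on either strand, so that a core on the other strand reads as its reverse complement. The cores are CCGGAA, the overlapping form CGGAAG, which also holds a CpG, and the form AGGAAG, which holds none.
PSMA6, chr14:35761438-35761637, plus strand: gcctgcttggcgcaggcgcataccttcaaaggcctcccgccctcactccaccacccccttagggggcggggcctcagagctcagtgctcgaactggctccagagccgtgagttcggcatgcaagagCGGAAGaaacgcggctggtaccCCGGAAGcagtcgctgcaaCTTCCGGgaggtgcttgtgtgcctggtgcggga
PSMB7, chr9:127177672-127177871, minus strand: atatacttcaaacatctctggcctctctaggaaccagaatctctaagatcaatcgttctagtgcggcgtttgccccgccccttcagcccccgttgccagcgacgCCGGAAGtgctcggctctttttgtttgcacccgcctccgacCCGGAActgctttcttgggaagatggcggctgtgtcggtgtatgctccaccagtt
PSMC3, chr11:47447941-47448140, minus strand: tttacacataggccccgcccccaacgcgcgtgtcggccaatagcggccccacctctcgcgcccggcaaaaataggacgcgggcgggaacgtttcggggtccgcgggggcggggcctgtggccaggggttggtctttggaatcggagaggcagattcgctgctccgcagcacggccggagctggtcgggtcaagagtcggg
PSMD14, chr2:162164786-162164985, plus strand: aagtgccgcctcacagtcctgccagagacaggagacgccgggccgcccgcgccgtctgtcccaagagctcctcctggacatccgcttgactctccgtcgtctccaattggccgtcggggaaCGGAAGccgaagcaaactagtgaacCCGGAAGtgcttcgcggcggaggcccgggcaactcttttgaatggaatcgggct
PSMB8, chr6:32811775-32811974, minus strand: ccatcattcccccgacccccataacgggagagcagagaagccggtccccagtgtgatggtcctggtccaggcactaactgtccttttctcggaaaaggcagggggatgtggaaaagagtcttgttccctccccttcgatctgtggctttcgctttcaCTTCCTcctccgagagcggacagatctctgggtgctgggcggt
PSMB9, chr6:32821819-32822018, plus strand: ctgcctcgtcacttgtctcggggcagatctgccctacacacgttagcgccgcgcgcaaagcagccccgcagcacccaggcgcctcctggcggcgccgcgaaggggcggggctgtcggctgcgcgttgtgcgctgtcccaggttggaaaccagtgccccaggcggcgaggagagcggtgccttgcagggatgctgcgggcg
PSMB10, chr16:67970704-67970903, minus strand: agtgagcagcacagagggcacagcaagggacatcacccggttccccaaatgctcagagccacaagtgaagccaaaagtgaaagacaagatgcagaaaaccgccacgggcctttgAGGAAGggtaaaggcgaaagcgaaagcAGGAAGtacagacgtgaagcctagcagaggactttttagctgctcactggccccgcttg
PSMA8, chr18:23713683-23713882, plus strand: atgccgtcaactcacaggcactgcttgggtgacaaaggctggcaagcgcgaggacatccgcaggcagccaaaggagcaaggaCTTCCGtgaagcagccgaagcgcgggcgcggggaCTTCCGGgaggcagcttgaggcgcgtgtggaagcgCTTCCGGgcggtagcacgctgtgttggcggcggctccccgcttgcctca
PSMB11, chr14:23511271-23511470, plus strand: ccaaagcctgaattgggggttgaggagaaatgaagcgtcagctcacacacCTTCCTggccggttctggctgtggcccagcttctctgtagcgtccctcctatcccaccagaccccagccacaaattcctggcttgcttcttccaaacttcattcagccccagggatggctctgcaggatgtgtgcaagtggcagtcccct
PSMA6 held 2 matches to CCGGAA, PSMB7 held 2 and PSMD14 held 1 in the bases shown. The only CCGGAA of PSMC3 starts 157 bases before the TSS and so lies just outside them. PSMA8, which had no peak in the TSS window, held 2 matches to CCGGAA and 3 to CGGAAG, as many as PSMA6. PSMB9, which had a peak, held none of the 3 cores in the bases shown, while PSMB8 held 1 AGGAAG and PSMB10 held 2. Both genes without a peak in the TSS window, PSMA8 and PSMB11, thus held at least 1 core.

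Within the 20S core the peaks of the alpha subunits, which form the gated outer rings, had a median width of 1048 bp (range 840 to 2316 bp). The midpoint nearest to a TSS was that of PSMA6 (chr14:35761024-35762107), 23 bp upstream of it, with a width of 1084 bp. The widest peak, of 2316 bp, was at PSMA7 (chr20:60716945-60719260), with its midpoint 348 bp downstream in intron 1. Only PSMA3 of these genes had a further peak in the TSS window, a narrow one of 288 bp centered 4911 bp upstream, beside its peak of 971 bp at 35 bp downstream. The other alpha subunits had midpoints 133 bp downstream for PSMA1, 53 bp upstream for PSMA2, 166 bp downstream for PSMA4 and 27 bp upstream for PSMA5.

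All 3 catalytic subunits of the constitutive core had a peak over the TSS. That of PSMB5, which has the chymotrypsin-like activity, was the widest of the beta subunits (chr14:23503023-23504678, 1656 bp) and had its midpoint 259 bp downstream in intron 1. PSMB6, which has the caspase-like activity, had a peak of 883 bp centered 188 bp downstream. PSMB7, which has the trypsin-like activity, had the nearest midpoint of the beta subunits, 31 bp upstream (chr9:127176971-127178533, 1563 bp). The catalytic genes thus spanned most of the range of beta subunit widths, from 667 to 1656 bp.

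The structural beta subunits differed mainly in the number of peaks. PSMB1 had a peak of 667 bp centered 135 bp downstream (chr6:170861927-170862593) and a second of 850 bp centered 1139 bp upstream, which covers the TSS of TBP, the TATA-binding protein gene. PSMB3 had a peak of 1637 bp centered 251 bp upstream and a broad one of 3791 bp centered 4291 bp upstream, which covers the TSS of PCGF2, a Polycomb group gene. Neither second peak can be given to the proteasome gene rather than to its neighbor from position alone. PSMB2 and PSMB4 had 1 peak each, with midpoints 65 bp upstream and 344 bp downstream.

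The peaks of the immunoproteasome genes were wider, and their midpoints further from the TSS, than the medians of the 46 genes. PSMB8 (chr6:32811278-32812901, 1624 bp) had its midpoint 265 bp upstream of the canonical TSS, in the gene but outside the canonical transcript. PSMB9 (chr6:32820304-32822841, 2538 bp) had the widest nearest peak of all proteasome genes, centered 397 bp upstream. PSMB10 (chr16:67969187-67971545, 2359 bp) had its midpoint 387 bp downstream, in exon 2. These 3 genes had a median width of 2359 bp, beside 1309.5 bp over the 46 genes, whose median distance was 143.5 bp. Genes of other roles reached similar values. The peak of PSMB5 (1656 bp) was wider than that of PSMB8, that of PSMG3 was 2346 bp wide, and that of PSMD5 was centered 405 bp from its TSS.

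PSMB8 and PSMB9 lie in the major histocompatibility complex next to the transporter genes TAP1 and TAP2 on chromosome 6. Reads with several loci were removed by the authors, and what this did to peaks in the region was not tested. From HLA-F to HLA-DPB1 a peak in the TSS window was found for 89 of 137 genes (65.0%, 56.7 to 72.4), and over the rest of chromosome 6 for 563 of 909 (61.9%, 58.7 to 65.0). The intervals of these shares overlap. The midpoint of the PSMB9 peak was nearer to the TSS of TAP1, at 91 bp, than to that of PSMB9.

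The tissue-specific subunits were the only genes outside the pattern. PSMA8, which replaces PSMA7 in male germ cells, had its nearest peak 43251 bp upstream (chr18:23669700-23671465), the only one within 50 kb. The nearest peak to PSMB11, which is found in thymic epithelium, was 7571 bp upstream and was the PSMB5 peak already described. Neither promoter was CpG-rich. That of PSMA8 had 49.6% GC and a CpG ratio of 0.688, just below the GC limit, and that of PSMB11 had 59.7% GC and a ratio of 0.306. The level of their transcripts in SCC25 cells was not analysed here.

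In the base of the 19S particle all 6 ATPases, PSMC1 to PSMC6, had a peak over the TSS (median width 1126.5 bp, range 617 to 1546 bp). PSMC3 had the midpoint nearest to the TSS, 87 bp upstream (chr11:47447436-47448719, 1284 bp), and PSMC5 the widest peak, 1546 bp centered 293 bp upstream (chr17:61903726-61905271). PSMC2 had the narrowest nearest peak of all proteasome genes, 617 bp centered 141 bp downstream, and a second of 843 bp centered 3078 bp upstream that covers the TSS of DNAJC2, a ribosome-associated chaperone gene. PSMC6 had a peak of 969 bp centered 105 bp downstream and a further one of 348 bp centered 3710 bp upstream. The ATPase genes therefore held 2 of the 6 genes with a further peak. The peak midpoints of PSMC1 and PSMC4 lay 182 bp downstream and 146 bp upstream.

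Of the base subunits that are not ATPases, the scaffold PSMD1 had a peak of 1099 bp centered 138 bp downstream and a further one of 889 bp centered 4020 bp upstream. The scaffold PSMD2 had the widest peak of the 3 (chr3:184016465-184017665, 1201 bp), centered 36 bp downstream. PSMD4, a receptor for ubiquitin, had the nearest midpoint, 29 bp downstream, in a peak of 751 bp (chr1:151226864-151227614). All 3 midpoints of these nearest peaks were in exon 1.

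The lid subunits had 1 peak in the TSS window of each of the 8 genes, with widths from 816 to 1530 bp. PSMD14, the deubiquitinase of the lid, had the nearest midpoint, 38 bp downstream in exon 1 (chr2:162164536-162165412, 877 bp). PSMD13 had the widest peak (chr11:235908-237437, 1530 bp), centered 304 bp upstream. The midpoints of PSMD6, PSMD7, PSMD8, PSMD11 and PSMD12 lay from 127 to 312 bp downstream, and that of PSMD3 lay 117 bp upstream.

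Among the chaperones that assemble the 19S base, PSMD9 had the midpoint nearest to its TSS of all proteasome genes, 20 bp downstream (chr12:122326262-122327170, 909 bp). PSMD5 had the widest peak of the 3, 1519 bp centered 405 bp upstream (chr9:123604846-123606364). PSMD10, also known as gankyrin, had its midpoint 139 bp upstream (chrX:107334344-107335478, 1135 bp), nearer to the TSS of the autophagy protease gene ATG4A, at 97 bp. The chaperones of the 20S core were PSMG1, with its midpoint 24 bp upstream (chr21:40554663-40556140, 1478 bp), PSMG2, PSMG3, with the widest peak of the 4 at 2346 bp (chr7:1608591-1610936), and PSMG4, centered 186 bp downstream. The PSMG2 midpoint lay 333 bp upstream of its TSS and 14 bp from the TSS of CEP76, a centrosomal protein gene.

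The activators cap the core in place of the 19S particle. PSME1 and PSME2 encode the subunits of one interferon-inducible ring, PSME3 its nuclear relative and PSME4 a large monomeric activator. PSME1 had the nearest midpoint of the 4, 42 bp downstream in exon 1 (chr14:24604712-24606178, 1467 bp). PSME2 had the widest peak (chr14:24615411-24617799, 2389 bp), and its midpoint, 786 bp upstream, was the only one of the 46 further than 500 bp from the TSS. It lay 102 bp from the TSS of RNF31, a ubiquitin ligase gene. PSME3 and PSME4 had midpoints 108 and 210 bp downstream, and the inhibitor PSMF1 had a peak of 1339 bp centered 311 bp downstream (chr20:1098887-1100225).

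Proteasome peaks were close to the TSS and of ordinary width. The midpoint was within 500 bp of the TSS for 45 of the 48 genes (93.8%, 83.2 to 97.9), beside 46.8% of all genes, which include those without a peak. Of genes with a peak in the window it was so for 45 of 46 proteasome genes (97.8%, 88.7 to 99.6). The share was 83.6% of all such genes and 87.4% of those with a CpG-rich promoter. The median distance was 143.5 bp (quartiles 70.5 and 263.5 bp) for the 46 genes and 187 bp (86 and 360 bp) for all genes with a peak in the window. Their median width was 1309.5 bp, with quartiles of 969.5 and 1527.25 bp, and that of all genes with a peak in the window was 1336 bp (991 and 1814 bp). Midpoints were downstream of the TSS in 27 genes and upstream in 19, and were in exon 1 in 13 genes and in intron 1 in 13.

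The proteasome peaks stood early in the deposited list, as did those of the ribosomal protein and tRNA synthetase genes. The list is not sorted by position, and the meaning of its order is not given in the sources used here. Its first 6742 peaks included the nearest peaks of 31 of the 46 genes (67.4%), beside 34.9% of all genes with a peak in the window, and its last 6744 peaks included those of 0 proteasome genes, beside 15.5%. The median place was 4498 for the proteasome genes and 10162.5 for all genes with a peak in the window. It was 3477 for cytosolic ribosomal protein genes, 5191.5 for mitochondrial ones and 5429 for the tRNA synthetases, on either side of the proteasome value. PSMB1, at place 660, was the earliest and PSMB9, at place 18299, the last. Only PSMB8, PSMB9, PSME1 and PSMG1 stood outside the first 13485 peaks. Of these 4, 3 are known to be induced by interferon, a remark made after their places were seen. PSMB10 and PSME2, which are also induced by interferon, stood among the first 13485, at places 9402 and 10068.

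**Figure D3:**
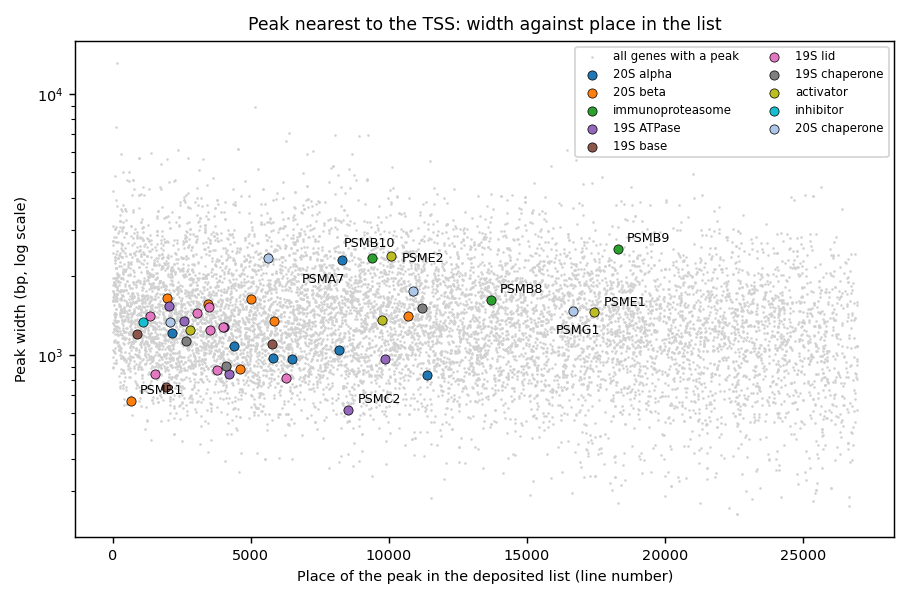
Width of the peak nearest to the TSS (bp, log scale) against its place in the deposited list (line number). Gray points are all 11114 genes with a peak in the TSS window, and colored points are 46 proteasome genes by role. Proteasome peaks crowd to the left, at a median place of 4498, while PSMB8, PSMB9, PSME1 and PSMG1 lie beyond place 13485.

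More than 1 peak in the TSS window was found for PSMA3, PSMB1, PSMB3, PSMC2, PSMC6 and PSMD1. These are 6 of 48 genes (12.5%, 5.86 to 24.7), beside 5.58% of all genes, a share just below the interval. Among genes with a CpG-rich promoter the share was 6.73%, which lies inside the interval. Both of these background shares include genes with no peak in the window. Among genes with at least 1, the counts were 6 of 46 proteasome genes and 1108 of 11114 genes in all. Of the 6 further peaks, 3 were nearer to the TSS of another gene, namely TBP, PCGF2 and DNAJC2. Peaks in the gene body outside the window were found for 5 of 48 genes (10.4%, 4.53 to 22.2), beside 24.9% of all genes. They were PSMB7, with 3 narrow peaks of 314 to 497 bp in exon 4 and intron 5, PSMB9, whose annotated body reaches the PSMB8 peak, PSMD9, PSMG3 and PSMG4. The shares with a peak in the gene body took no account of gene length.

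Several proteasome genes share a promoter region with a neighbor. The TSS of another protein-coding gene on the opposite strand lay within 1 kb for 9 of 48 proteasome genes (18.8%, 10.2 to 31.9) and for 9.92% of all genes, a share just below that interval. The pairs were PSMA2 with MRPL32, PSMA7 with SS18L1, PSMB9 with TAP1, PSMC5 with FTSJ3, PSMD13 with SIRT3, PSMD10 with ATG4A, PSME2 with RNF31, PSME4 with ACYP2 and PSMG2 with CEP76. A single peak covered both start sites in all 9 pairs, with distances between the start sites from 120 bp for PSME4 and ACYP2 to 888 bp for PSME2 and RNF31. Which gene of a pair such a peak belongs to cannot be told apart in this list.

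Pseudogenes of the same families were nearly free of peaks, as were processed pseudogenes at large. All but 1 of them are annotated as processed, that is retrotransposed copies, which as a rule lack the promoter of the parent gene. Of 44 annotated pseudogenes 1 had a peak midpoint in the window (2.27%, 0.402 to 11.8), and 0 had one within 500 bp of the annotated start. The shares over 10087 processed pseudogenes were 4.04% and 0.585%. Reads with several loci were removed by the authors, and what this did to peaks at such copies was not tested. The 1 copy was PSMD8P1 on chromosome 1, with peaks centered 3492 and 4633 bp upstream of its start.

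ETS motifs that contain a CpG were found in more proteasome promoters than in promoters at large. In the 300 bases from 250 before to 49 after the TSS, with both strands searched, CCGGAA was found in 25 of 48 genes (52.1%, 38.3 to 65.5), in 22.8% of all promoters and in 35.0% of CpG-rich promoters with a peak. CGGAAG was found in 29 (60.4%, 46.3 to 73.0), beside 25.5% and 38.9%. The longer CCGGAAGT, which contains both, was found in 13 (27.1%, 16.6 to 41.0), beside 6.17% and 11.0%. AGGAAG, the core without a CpG, was found in 14 (29.2%, 18.2 to 43.2) and in 32.7% of all promoters. The share over all promoters thus lay below the interval of the proteasome genes for the 3 motifs that hold a CpG and inside it for AGGAAG.

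**Figure D4:**
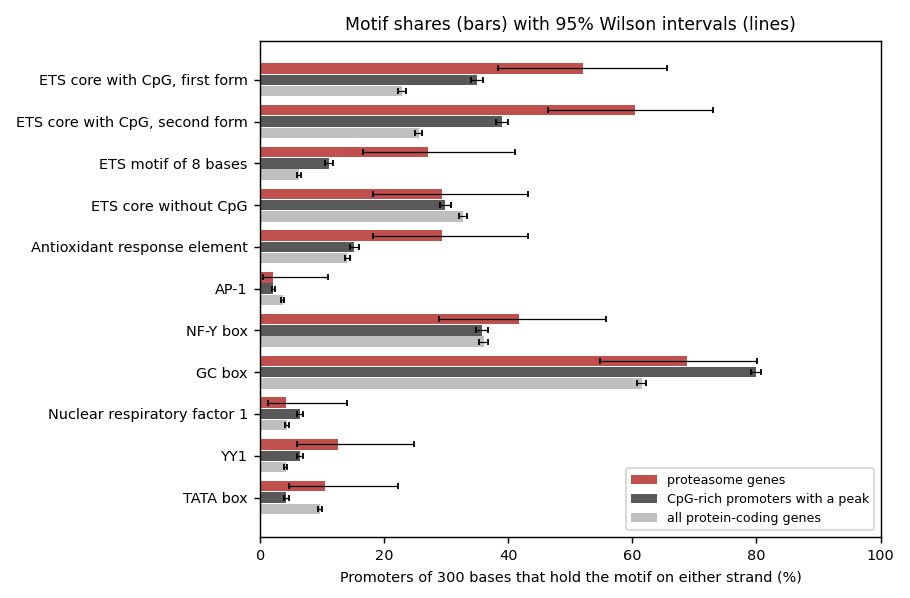
Share (%) of promoters of 300 bases that hold each motif on either strand, for proteasome genes, CpG-rich promoters with a peak and all protein-coding genes. Lines are 95% Wilson intervals. The first form is CCGGAA, the second CGGAAG, the motif of 8 bases CCGGAAGT and the core without CpG AGGAAG; proteasome genes exceed the other sets for the forms with CpG, at 52.1%, 60.4% and 27.1%.

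The counts of CCGGAA differed between roles, but each role has few genes and no interval was computed. The motif was found in 7 of 8 lid genes and 5 of 6 ATPase genes, in 3 of 7 beta and 1 of 7 alpha subunit genes, and in 0 of 3 immunoproteasome genes. It was also found in 1 of 3 other base subunits, 2 of 3 chaperones of the 19S particle and 2 of 4 of the 20S core. The remaining roles had it in 2 of 4 activators, in PSMF1 and in 1 of 2 tissue-specific genes. CGGAAG was found in 6 of 8 lid genes, 5 of 6 ATPase genes, 4 of 7 beta, 4 of 7 alpha and 1 of 3 immunoproteasome genes. The counts for alpha subunits thus depended on which form was searched. There were 3 matches to CCGGAA in each of PSMB7, PSMD13, PSME4 and PSMG3, 2 in 8 further genes, 1 in 13 and 0 in 23. A match on both strands at the same place, as in PSMB5 and PSMG3, counts as 2.

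The matches lay close to the TSS, as did those of promoters at large, and no interval was computed for these shares of sites. Of 41 matches to CCGGAA in proteasome promoters 17 started in the 50 bases before the TSS (41.5%), beside 32.4% over all promoters and 32.5% over CpG-rich ones. From 100 bases before to 44 after the TSS the share of matches was 75.6%, beside 67.1% and 66.9%. They did not gather at the peak midpoints, since CCGGAA was found within 100 bp of the midpoint in 8 of 46 genes (17.4%, 9.09 to 30.7), beside 19.3% of the nearest peaks of all genes. The list gives no summits, and the midpoint of a wide peak need not be its highest point.

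**Figure D5:**
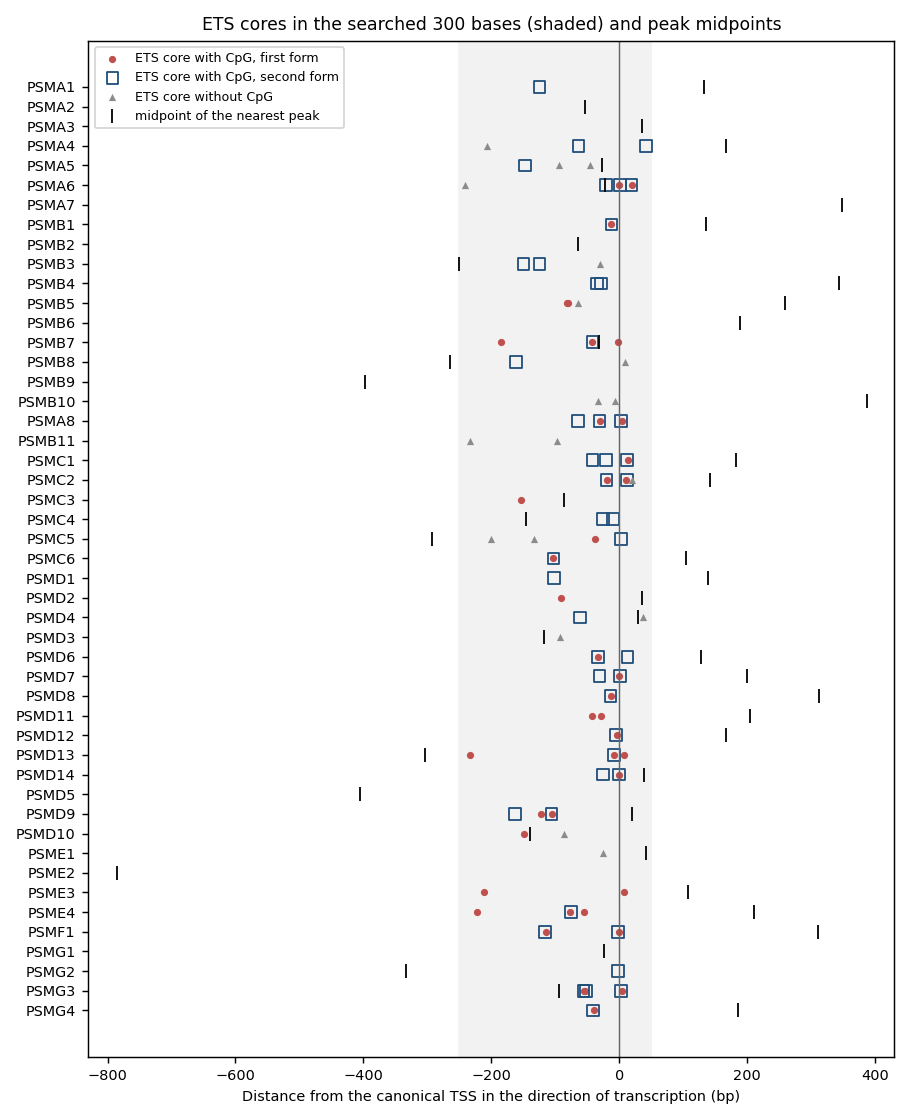
Places of ETS cores in the searched 300 bases (shaded) of each of the 48 proteasome genes and midpoints of the nearest peak, as distance from the TSS in bp. Circles are CCGGAA, squares CGGAAG, triangles AGGAAG and ticks midpoints. Cores gather just upstream of the TSS in most rows, PSMA8 has 3 squares and no tick, and 9 rows have a tick and no core.

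Since 46 of 48 proteasome genes had a peak, the share with a peak could hardly differ by motif. A peak in the TSS window was found for 24 of 25 proteasome genes with CCGGAA (96.0%, 80.5 to 99.3) and for 22 of 23 without it (95.7%, 79.0 to 99.2). Over all promoters the shares were 81.0% and 48.6%, and over CpG-rich promoters they were 87.2% and 68.7%. None of the 3 cores was found in the promoters of PSMA2, PSMA3, PSMA7, PSMB2, PSMB6, PSMB9, PSMD5, PSME2 and PSMG1, and 9 of these 9 genes had a peak. Over the whole width of the peak at least 1 of the 3 cores was found in 46 of 46 genes, beside 95.1% of the nearest peaks of all genes, a share that wide peaks reach easily. For these 9 genes the cores in the peak thus lay outside the 300 bases searched.

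Other promoter motifs were searched in the same 300 bases on both strands. The antioxidant response element TGACNNNGC, to which NFE2L1 and NFE2L2 bind, was found in 14 of 48 proteasome genes (29.2%, 18.2 to 43.2), in 14.0% of all promoters and in 15.1% of CpG-rich promoters with a peak. AAGATGGC, a motif of YY1, was found in 6 (12.5%, 5.86 to 24.7), beside 4.06% of all promoters and 6.40% of CpG-rich promoters with a peak, the second of which lies inside the interval. The AP-1 motif TGAGTCA, which on the other strand can overlap TGACNNNGC, was found only in PSMD9 (2.08%), beside 3.56%. CCAAT for NF-Y, GGGCGG for Sp1 and its relatives, TATAAA for the TATA-binding protein and GCATGCGC for nuclear respiratory factor 1 were found in 20, 33, 5 and 2 genes. Their shares of 41.7%, 68.8%, 10.4% and 4.17% stood beside 36.0%, 61.5%, 9.63% and 4.27% of all promoters, each inside the Wilson interval of the proteasome share. Among CpG-rich promoters with a peak the shares were 35.7%, 79.9%, 4.11% and 6.40%. That of GGGCGG was higher than the proteasome share and near the upper end of its interval (54.7 to 80.1). That of TATAAA was below the interval over all 48 proteasome genes (4.53 to 22.2). It lay inside the interval of the 46 with a peak (8.70%, 3.43 to 20.3), which leaves out PSMA8, a gene with TATAAA.

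Most genes that work with the proteasome under other names had a peak too, though such small lists give wide intervals. Of 9 subunits and cofactors, 8 had a peak in the TSS window (88.9%, 56.5 to 98.0), among them SEM1, a lid subunit with a peak of 774 bp centered 168 bp downstream, and POMP, the maturation factor of the core, with one of 901 bp centered 59 bp downstream. The exception was ADRM1, a ubiquitin receptor, whose wide peak of 5504 bp covered the TSS. The midpoint of that peak lay 1255 bp downstream of the TSS and so just outside the window. All 6 genes for ubiquitin and its activating enzymes had a peak. Of 11 genes for shuttle factors and the p97 segregase with its partners 10 had one, all but DDI1.

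Of 12 factors known to act on proteasome genes 11 had a peak (91.7%, 64.6 to 98.5). NFE2L1 had 2 peaks in the window, the nearest of 2037 bp centered 60 bp upstream, and NFE2L2 had 1 of 2240 bp centered 245 bp downstream. IRF1, the interferon-induced activator of immunoproteasome genes, had a peak of 2028 bp centered 111 bp upstream. NGLY1, the enzyme that NFE2L1 needs for its activation, was the exception, with its nearest peak 69942 bp downstream of the TSS. The share of these factors stood, like that of the proteasome genes, above the 56.0% of all genes. Its interval holds the 74.2% of all CpG-rich promoters, whereas that of the proteasome genes lies above it.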

How the data were processed

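The authors measured ETS1 binding by ChIP-Seq in SCC25, with C20 in 2 samples and 501A in 1. Reads were mapped to hg19 and those with several loci were removed (Bowtie 1.1.1 and SAMtools 1.3 in the submitters' processing notes). The authors called peaks with MACS2 and deposited 1 consensus list after the IDR procedure, with positions only. Its starts, counted from 0, were converted to positions counted from 1. The methods state a range of reads per sample, and the depth of each single sample is not given in the sources used here.

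Of 20163 protein-coding genes in GENCODE 44 on GRCh37, 282 without a canonical transcript and 18 second copies in the pseudoautosomal part of Y were left out, which left 19863. Peaks were placed by their midpoint. Sequences were read from GRCh37, and motifs were matched exactly on both strands. The list allowed counts and 95% Wilson intervals and no test. With planted data, 1000 of 1000 genes with a peak and 400 of 400 promoters with a motif were recovered.

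The genes, roles, gene lists and motifs were chosen with earlier results of these data known. Genes described in full were those without a peak in the TSS window, the nearest and the widest peak of each role, genes with more than 1 peak in the window and those whose peak was nearer to another gene. The shares for any of 3 ETS cores, for whole peaks, and for peaks by motif were added after the data were seen. Alternatives were another window or TSS, any overlap in place of the midpoint, the first 13485 peaks, wide peaks and other motifs. Python 3.11.15, numpy 2.4.6 and matplotlib 3.10.9 were used.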

Additional observations from a re-analysis of the deposited data

How the results depend on the processing

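Over 44 alternatives to 9 results, 38 stayed within 1.5 times the reported value and 6 did not. The number of proteasome genes with a peak in the TSS window stayed at 46 with any overlap, with 1 kb on both sides of the TSS and with any annotated TSS, was 45 within 500 bp, where PSME2 was lost, 42 among the first 13485 peaks, where PSMB8, PSMB9, PSME1 and PSMG1 were lost, and 36 among peaks of at least the median width of 969 bp. With the cofactors under other names it was 54 of 57. Among peaks of at least the median width, 11 of the 17 subunit genes of the 19S particle kept a peak. Among the first 13485 peaks, 1 of the 3 immunoproteasome genes kept one, and the share of all genes fell from 56.0% to 36.4%. Measured to the nearest annotated TSS, the median distance was 92.5 bp in place of 143.5 bp. CCGGAA was found in 8 genes within 100 bp of the peak midpoint, and CCGGAAGT in 13 promoters, in place of 25. The cause of these moves was not tested beyond the smaller number of peaks or sites that each alternative allows. No paired analysis was possible because the list is pooled and the antibodies share no more than 1 replicate number, and for the same reason no replicate could be left out. The list holds no depth, so a peak missed for want of reads cannot be recognised.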

Other observations

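The interferon-inducible proteasome genes are set beside the others here, a grouping made after their values had been seen and given without a test. For PSMB8, PSMB9, PSMB10, PSME1 and PSME2 the median width of the nearest peak was 2359 bp (range 1467 to 2538 bp), and for the other 41 genes with a peak in the TSS window it was 1243 bp (617 to 2346 bp). Their median place in the list was 13688 (9402 to 18299), and that of the other 41 genes was 4095 (660 to 16691). The ranges of the groups overlap for both measures. PSMB9 and PSME2 share their promoter region with TAP1 and RNF31, and the part of the neighboring start site in the width was not tested. CCGGAA was found in 0 of these 5 promoters (0%, 0 to 43.4) and in 24 of the other 41 (58.5%, 43.4 to 72.2). It was found in 22.8% of all promoters, a share inside the wide interval of the 5. PSMB8 held the overlapping form CGGAAG, and AGGAAG was found in PSMB8, PSMB10 and PSME1.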
